A study of Saccharomyces kudriavzevii and Saccharomyces cerevisiae and Kluyveromyces marxianus with 12 samples.

Results

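The 6 control libraries of this study hold the transcriptomes of 3 budding yeasts growing without heat stress, out of 12 libraries in all, and were chosen by their species and temperature labels alone. S. kudriavzevii FM1389 was held at 24 °C, S. cerevisiae BY4742 at 33 °C and K. marxianus DMKU3-1042 at 37 °C, with 2 biological replicates each. FM1389 derives from strain ZP591 and is listed as MATα hoΔ::kanMX ura3Δ0 his3Δ0. BY4742 is MATα ura3Δ0 leu2Δ0 his3Δ1 lys2Δ0, and DMKU3-1042 is MATα with no other listed marker. All cells grew in YPD with 2% dextrose to an OD600 between 0.2 and 0.4, then spent 8 min at the control temperature before freezing. The growth text in the labels gives 34 °C for FM1389, against 24 °C in its temperature label, and the label was followed here. The values below cannot tell which was used, but the study's own text gives growth at 24 °C and stress at 31 °C for this species. Each species was 1 strain at 1 temperature, read against its own genome and gene models, so species, strain, temperature and reference cannot be told apart in any comparison below. The other 6 libraries, heat-shocked counterparts, were used only for scale.

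Yeast cells growing fast on glucose spend most of their mRNA on a small set of tasks. In Saccharomyces, glycolytic enzymes turn glucose into ethanol even with oxygen present, while the study describes K. marxianus as respirative. Ribosomal proteins feed growth, and glycoproteins build the new wall. Haploid cells add a set of transcripts for mating that depends on the allele at the MAT locus: α cells make α-factor and the receptor for a-factor, and a cells make the reverse pair. In α cells the repressor α2 with Mcm1 shuts off the a-specific genes, while α1 switches on the α-specific ones.

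Control libraries held between 19787368 and 28310252 reads on genes. Reads with no countable gene made up 4.65% and 4.77% of the S. kudriavzevii libraries, 6.49% and 6.60% of the S. cerevisiae libraries and 7.93% and 7.57% of the K. marxianus libraries. TPM (transcripts per 1000000) divides each gene's reads by its length and scales each library to the same sum. TPM values were listed for 5549 genes of S. kudriavzevii, 5970 of S. cerevisiae and 4952 of K. marxianus. The lengths behind them were all multiples of 3 bases, so they are coding lengths. The 2 S. kudriavzevii libraries stood apart from each other by gene length. Among genes with a mean of at least 10 TPM, 1507 of 4618 (32.6%) differed at least 2-fold between them, against 26 of 4719 in S. cerevisiae and 42 of 3562 in K. marxianus. The S. kudriavzevii identifiers carry no gene names. Every name given to them here, other than PAB1 and SSA4, which the study pairs itself, is inferred by aligning gene order and coding length along each chromosome with an annotated genome of strain IFO1802, and is an assumption that no sequence has checked. Of the 4928 genes so paired with S. cerevisiae 4281 had exactly the length of the IFO1802 gene. A shuffled gene order gave 217 accepted pairs against 5477, and both pairs given by the study were recovered. Values are given for each replicate.

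The most abundant transcripts took a larger share of the K. marxianus transcriptome than of the other transcriptomes, though no test passed its threshold. The 10 most abundant genes held 27.4% and 28.8% of TPM in K. marxianus (28.1% ± 0.966, SD, n = 2). They held 11.7% and 11.4% of the S. cerevisiae total (11.6% ± 0.243, SD, n = 2), and for S. kudriavzevii 10.2% and 13.3% (11.8% ± 2.19, SD, n = 2). Both K. marxianus libraries lay above all 4 Saccharomyces libraries, and the Saccharomyces species overlapped. The study places the split of K. marxianus before the whole-genome duplication, so duplicated genes of Saccharomyces can stand against single genes. Reads placed at more than 1 site were 1.42% and 1.27% in K. marxianus, 3.90% and 4.04% in S. cerevisiae and 1.91% and 1.96% in S. kudriavzevii. The part of gene copies in the shares and in the counts by TPM level was not tested. The number of genes needed to reach 50% of TPM was 50 and 48 in K. marxianus, 121 and 121 in S. cerevisiae, and 154 and 105 in S. kudriavzevii. At the 100 most abundant genes the share was 65.9% and 66.3% in K. marxianus and 45.1% and 45.04% in S. cerevisiae. There the S. kudriavzevii libraries fell on either side of S. cerevisiae, at 39.8% and 48.8%. An exact permutation test over the 6 libraries gave p = 0.2 for the 3 species (0.267 adjusted over 4 measures), where the smallest p the design allows is 0.0667. For each pair of species the smallest exact two-sided p is 0.333, so no pairwise difference could pass a threshold of 0.05. For scale, after heat shock the same share was 31.0% ± 1.82 in K. marxianus, 21.7% ± 0.0865 for S. cerevisiae and 16.7% ± 2.41 for S. kudriavzevii (SD, n = 2 each), so the K. marxianus controls held more than either heat-shocked Saccharomyces.

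**Figure D1:**
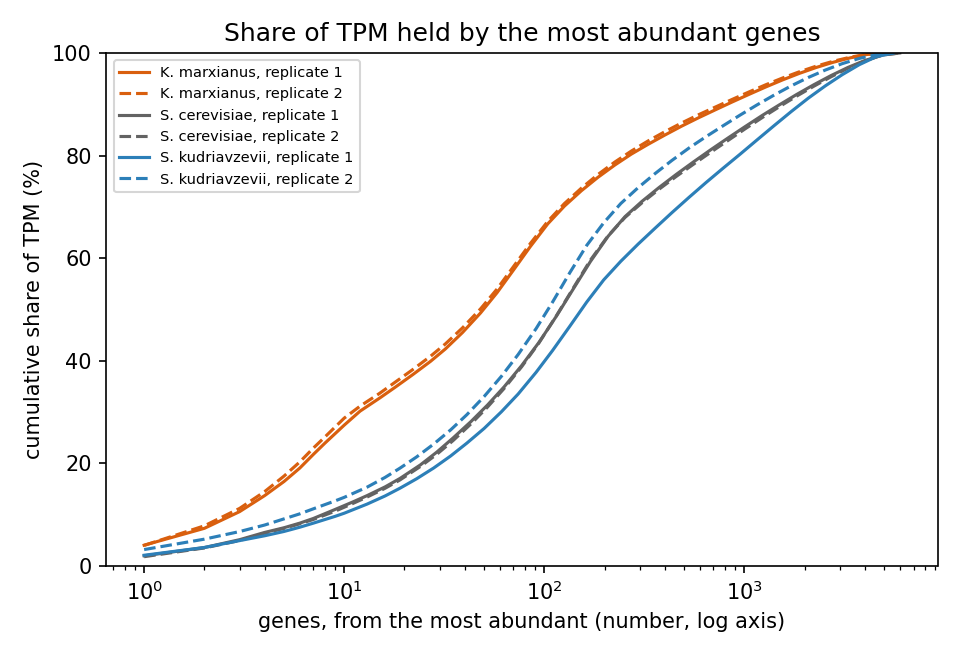
Cumulative share of TPM (%, y axis) against the number of genes counted from the most abundant (log x axis), with a line for each of the 6 control libraries. Both K. marxianus lines run above the others and pass 50% at 50 and 48 genes, while the S. kudriavzevii lines pass it at 154 and 105, on either side of S. cerevisiae at 121.

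The genes at the top were much the same in the Saccharomyces species. CCW12, a mannoprotein of the cell wall, led in both. It stood at 20339 and 31435 TPM in S. kudriavzevii and at 19238 and 17547 TPM in S. cerevisiae. CWP2, another wall mannoprotein, reached 8405 and 12017 TPM in S. kudriavzevii and 14077 and 14262 TPM in S. cerevisiae. Among glycolytic enzymes, TDH3 (glyceraldehyde-3-phosphate dehydrogenase) stood at 9432 and 9680 TPM in S. kudriavzevii and at 16117 and 14534 TPM in S. cerevisiae. ADH1, the main alcohol dehydrogenase of fermentation, was nearly level, at 8340 and 8520 TPM against 8993 and 8330 TPM. FBA1 (aldolase), GPM1 (phosphoglycerate mutase), RPS31 (a ribosomal protein fused to ubiquitin), RPL30 and RPS20 completed the named genes common to both top 10 sets of paired genes, which S. kudriavzevii filled with RPP2B and S. cerevisiae with RPL38. None of these passed the test between species described below. Of the 100 most abundant paired genes of each species, 87 were shared, and 68 of those encode cytosolic ribosomal proteins.

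Very short genes had a part in these lists. The ribosomal protein genes RPL41A and RPL41B of S. cerevisiae, both 78 bases long and near-identical, stood at 15370 and 17030 TPM and at 7779 and 7695 TPM. YDR524C-B, 201 bases long, stood at 8939 and 9303 TPM. In S. kudriavzevii 3 of the top 10 carried no name in the pairing used here, and they had the same lengths of 78, 201 and 78 bases. The longest of the 3, SKDZ_04G7110, stood at 13378 and 14848 TPM. K. marxianus differed in this respect. Of its 10 most abundant genes 9 were at least 600 bases long, against 3 for S. kudriavzevii and 4 for S. cerevisiae. The leading identifiers were KLMA_80059 (996 bases) at 39953 and 39595 TPM and KLMA_40174 (378 bases) at 32559 and 38140 TPM. With genes under 300 bases left out, the top 10 share was 30.1% in K. marxianus and 10.9% in S. cerevisiae.

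Most genes lay between 10 and 100 TPM in every library, and the species differed little in the number of very abundant genes. Genes at 1000 TPM or more made up 3.53% and 3.62% of the S. kudriavzevii list (196 and 201 genes), 3.62% and 3.42% of the S. cerevisiae list (216 and 204) and 2.95% and 2.99% of the K. marxianus list (146 and 148). Both K. marxianus values were the lowest of the 6. The exact permutation test for any difference among the 3 species gave p = 0.133 (0.267 adjusted). At 10000 TPM or more the order turned. K. marxianus had 12 and 11 such genes, S. cerevisiae 4 and 4, and S. kudriavzevii 3 and 5.

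At the low end S. cerevisiae had the largest share of listed genes under 1 TPM, which need not be silent. Genes under 1 TPM were 4.89% and 4.81% of its list, against 2.09% and 2.97% in S. kudriavzevii and 2.52% and 3.51% in K. marxianus. The S. cerevisiae libraries lay above the other 4, and the other species overlapped. For any difference among the 3 species the exact permutation p was 0.133 (0.267 adjusted). Exactly 0 reads were counted for 131 genes in each S. cerevisiae library, for 26 and 28 genes in S. kudriavzevii and for 35 and 44 in K. marxianus. A count of 0 allows up to 3 reads, which on a gene of median length is 0.0711 to 0.0920 TPM in these libraries. The gene lists themselves were not alike. The S. cerevisiae genes at 0 included LEU2, LYS2 and URA3, deleted by genotype, and MATALPHA1, whose copies share their sequence. Among the 4928 genes paired between the Saccharomyces species, the order turned, with 0.791% of genes under 1 TPM in S. cerevisiae and 1.40% in S. kudriavzevii.

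**Figure D2:**
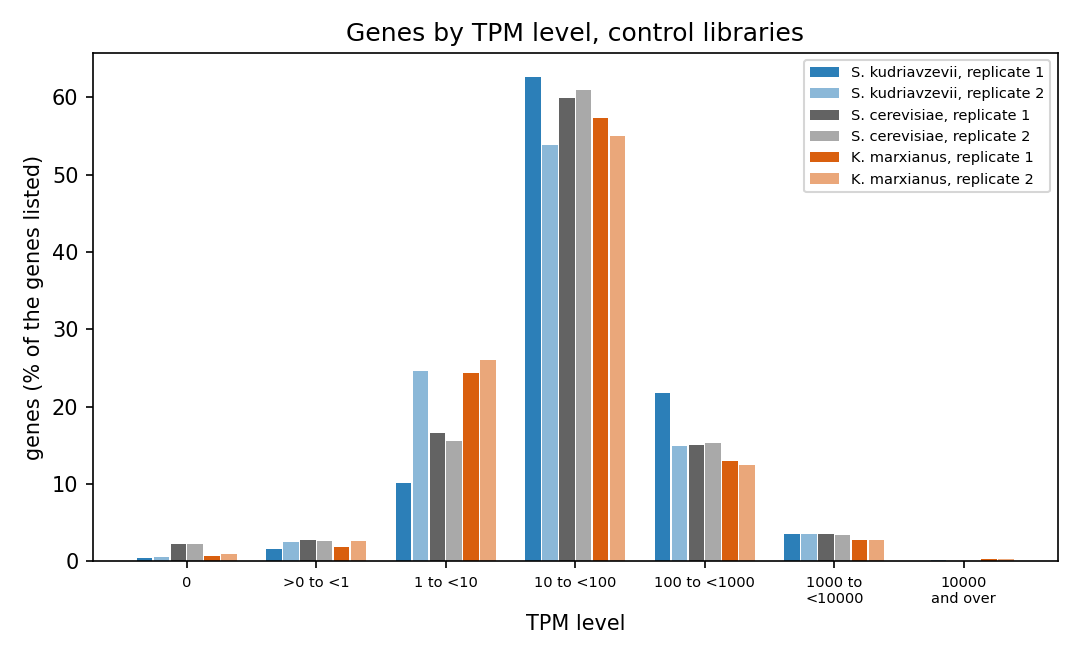
Genes in each TPM class as a percentage of the genes listed for the species (y axis, bars from 0), for the 2 control replicates of each species. The class from 10 to under 100 TPM holds most genes in every library, and the class from 1 to under 10 TPM differs most between the S. kudriavzevii replicates, at 10.1% and 24.6%.

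The middle of the range separated the S. kudriavzevii replicates more than it separated the species. Median TPM was 40.5 and 23.3 in S. kudriavzevii, while S. cerevisiae had 27.2 and 28.7 TPM and K. marxianus 21.0 and 20.3 TPM. Replicate 1 of S. kudriavzevii was the highest of the 6 libraries, while replicate 2 lay between S. cerevisiae and K. marxianus.

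Short genes were more abundant than long genes in all 3 species. Over genes above 0 TPM in both replicates, the Spearman rank correlation of TPM with coding length was -0.334 and -0.488 in S. kudriavzevii. S. cerevisiae had -0.354 and -0.302, and K. marxianus -0.417 and -0.399. These are correlations across genes within a library, and genes are not independent replicates. The S. kudriavzevii libraries enclosed the other 4, and the exact permutation p over the 3 species was 0.533. K. marxianus lay below S. cerevisiae in both replicates.

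Class medians show the shape of the relation. Genes of 2400 bases and over had a median of 24.1 and 8.29 TPM in S. kudriavzevii, 12.6 and 14.9 TPM in S. cerevisiae and 9.74 and 9.22 TPM in K. marxianus. Genes under 300 bases had medians of 136 and 151 TPM in S. kudriavzevii and 98.7 and 97.4 TPM in K. marxianus. In S. cerevisiae this shortest class was not the most abundant. Its median was 32.1 and 32.9 TPM, below the 59.1 and 54.3 TPM of genes of 300 to under 600 bases, and the class held 317 genes against 172 in S. kudriavzevii and 133 in K. marxianus. Genes of 300 to under 600 bases carried the largest share of TPM of the 5 length classes in the Saccharomyces libraries, at 35.4% and 42.9% in S. kudriavzevii and 40.3% and 39.6% in S. cerevisiae. In K. marxianus genes of 600 to under 1200 bases did, at 41.4% and 41.4%.

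**Figure D3:**
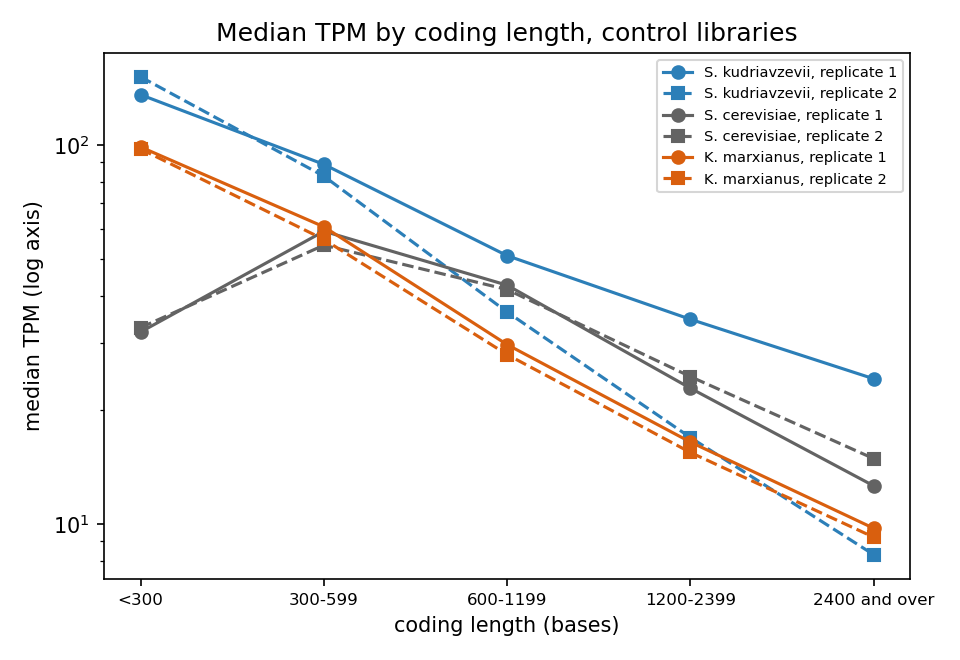
Median TPM (log y axis) of genes in 5 classes of coding length (x axis, bases) in the 6 control libraries. The lines fall with length except for the shortest S. cerevisiae class, and the S. kudriavzevii replicates part from 136 and 151 TPM under 300 bases to 24.1 and 8.29 TPM at 2400 bases and over.

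The S. kudriavzevii replicates differed along this same axis. The ratio of replicate 2 to replicate 1 had a median of 1.15 for genes under 300 bases, 0.75 at 600 to under 1200 bases and 0.36 at 2400 bases and over, with a rank correlation to length of -0.749 over 4618 genes. In S. cerevisiae the same medians were 0.958, 1.00 and 1.19, and in K. marxianus 0.964, 0.960 and 0.954. The largest replicate ratios among paired genes of at least 100 TPM were those of PYC2 (pyruvate carboxylase), NOG2 (a nucleolar GTPase) and ACO1 (aconitase). PYC2 fell from 201 TPM in replicate 1 to 41.6 TPM in replicate 2, NOG2 from 257 to 64.4 TPM and ACO1 from 307 to 77.6 TPM. The part of this length difference in the comparisons between species was not tested apart from the fits named beside each result.

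The 2 Saccharomyces species were then compared gene by gene on the read counts of 4923 paired genes by edgeR's quasi-likelihood test, with gene length as an offset. The pairs inferred from gene order and length are called orthologs below. Of these orthologs 353 (7.17%) were higher and 347 (7.05%) lower in S. kudriavzevii at an adjusted p under 0.05, or 700 (14.2%) in all. By comparison, the TPM of the 2 species did not overlap for 2489 orthologs (50.6%). The median log2 difference over all tested orthologs was 0.02. Spearman correlations of TPM between libraries of different species ran from 0.855 to 0.896 over 4928 orthologs, below the 0.956 of the S. kudriavzevii replicates and the 0.990 of the S. cerevisiae replicates.

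How many orthologs were called depended on the libraries. Without S. cerevisiae replicate 1 the test called 95 higher and 142 lower, and without S. cerevisiae replicate 2 it called 86 and 199. Without S. kudriavzevii replicate 1 it called 1304 and 1294, and without replicate 2 1264 and 1332, since the spread then came from the S. cerevisiae pair alone. Among the 149 genes chosen for description, 16 lost their call without S. cerevisiae replicate 1 (edgeR adjusted p from 0.0547 to 0.716) and 12 without replicate 2 (0.0533 to 0.683), all in the same direction as before. Of the genes named below, ARX1, DBP2, ERG28, HSP60, LYS20, MDH1, NSR1 and QCR9 lost it in both cases, ADH3, COX6, ENO1, GRX1 and SSA1 without replicate 1, and LEU1 without replicate 2. Without S. kudriavzevii replicate 1 or 2, further genes of the 149 gained a call, some of them with the sign turned. Removing each library's trend with length, an alternative chosen after seeing the data, gave 915 and 1071, or 40.3% of orthologs. All 700 orthologs called at first were called in the same direction in that fit.

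The markers of cell type gave the sharpest contrast. S. cerevisiae carried α-specific transcripts and S. kudriavzevii carried a-specific transcripts, although both strains are listed as MATα. All 4 of the α-specific genes were lower in S. kudriavzevii and all 6 of the a-specific genes that could be paired were higher, against 7.05% and 7.17% of all orthologs. MF(ALPHA)1, the main α-factor gene (chromosome XVI, 193648 to 194145, + strand, R64), stood at 6.03 and 4.401 TPM in S. kudriavzevii and at 2603 and 2694 TPM in S. cerevisiae. STE3, the a-factor receptor (chromosome XI, 113215 to 114627, - strand), stood at 3.96 and 2.27 TPM against 157 and 168 TPM. The agglutinin SAG1 was at 15.8 and 6.08 TPM against 130 and 139 TPM. The values of these genes did not overlap between species in any library, and their edgeR adjusted p lay between 0.000762 and 0.00219.

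The a-specific genes showed the reverse order. MFA2, which encodes a-factor (chromosome XIV, 352414 to 352530, + strand), stood at 1436 and 2165 TPM in S. kudriavzevii and at 7.76 and 6.97 TPM in S. cerevisiae, a 244-fold difference of means (log2 difference 8.03, SE 0.61, edgeR adjusted p = 0.00175). MFA1, the other a-factor gene, was at 349 and 480 TPM against 9.81 and 12.4 TPM. STE2, the α-factor receptor, was at 298 and 195 TPM against 5.58 and 5.01 TPM. STE6, the exporter of a-factor, was at 52.7 and 22.6 TPM against 3.23 and 2.94 TPM, and the agglutinin subunit AGA2 at 211 and 325 TPM against 3.85 and 1.07 TPM. HMRA1, the a1 gene of the silent HMR cassette, had 880 and 885 reads in S. kudriavzevii and 0 in both S. cerevisiae libraries, and was at least 239-fold higher when 3 reads are allowed in each S. cerevisiae library. The gene so called in S. kudriavzevii was paired with a longer gene of IFO1802, as was SAG1, so its name is less sure than those of the other mating genes, which were of equal length there. In S. cerevisiae the copies of the α cassette share their sequence, and MATALPHA1, MATALPHA2, HMLALPHA1 and HMLALPHA2 were all at 0 counts.

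Haploid markers were expressed in both species. GPA1, STE4, STE18 and FUS3, the G protein subunits and the kinase of the pheromone pathway that haploid cells of both types use, ranged from 60.4 to 156 TPM over the 4 libraries. None passed the edgeR test, and 1 of the 4 was higher at an unadjusted p under 0.05 and by DESeq2. The meiotic genes IME1, IME2, NDT80 and SPO11 stayed at or below 21.0 TPM. IME1, the inducer of meiosis, was lower in S. kudriavzevii, at 2.91 and 3.24 TPM against 21.0 and 19.6 TPM (log2 difference -2.70, edgeR adjusted p = 0.00813). SPO11, the meiotic nuclease, was also lower, at 0.796 and 0.755 TPM against 3.06 and 4.35 TPM.

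The a-specific genes share a short sequence in the S. cerevisiae genome, shown here because it is the site through which α2 represses them. The 7 letters CATGTAA, an α2 half-site, or the reverse complement TTACATG were searched within 500 bases before the start codon. They were found before 7 of the 7 a-specific genes, among them BAR1, which could not be paired and is not printed. The site was chosen because it is known for these genes, so their matches test nothing. Of all 6477 genes and pseudogenes annotated in R64, not restricted to coding genes, 6.21% had a match in the 500 bases before them. SAG1 was the only 1 of the 4 α-specific genes with a match. Each line gives 30 bases around a match from the R64 genome on the strand of the gene, 5′ to 3′, with the 7 letters in capitals.
MFA1: aaaaaggaaatTTACATGttaaatgaaacc
MFA2: attcgggaaatTTACATGacatggatgcca
STE2: gttttttcaacCATGTAAatttcctaattg
STE6: attttttttgcCATGTAAttacctaatagg
AGA2: attactgaaacCATGTAAtttccgaatacg
ASG7: catcgggaaatTTACATGttaactgcaatg
These 6 genes were the ones higher in S. kudriavzevii, and the S. kudriavzevii sequences before them were not analysed here. The matches lay 132 (ASG7) to 298 (AGA2) bases before the start codon. The MFA1 line covers chromosome IV, 1384955 to 1384984, and the STE2 line chromosome VI, 82340 to 82369. A match describes letters only and was not tested for binding.

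Genes deleted by genotype followed the strains in most cases. HO, the mating-type switching nuclease, and HIS3 of histidine synthesis had 0 reads in both S. kudriavzevii libraries. HIS3 was at 169 and 165 TPM in S. cerevisiae, and at least 1220-fold higher there, while HO was at 31.1 and 37.7 TPM and at least 610-fold higher. The his3Δ1 allele of BY4742 lacks only an inner stretch of the gene, so its reads check nothing there. In S. cerevisiae LEU2, LYS2 and URA3 had 0 reads in both libraries. LEU2 stood at 46.7 and 34.4 TPM in S. kudriavzevii (at least 346-fold higher) and LYS2 at 19.1 and 3.94 TPM (at least 151-fold higher). URA3 was the exception. FM1389 is listed as ura3Δ0, yet 143 and 86 reads, or 5.27 and 3.20 TPM, were counted on the gene paired with URA3, at least 23.7-fold above S. cerevisiae. The mating-type transcripts and URA3 thus went against the genotype listed for the libraries labelled S. kudriavzevii FM1389, while HO and HIS3 did not.

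**Figure D4:**
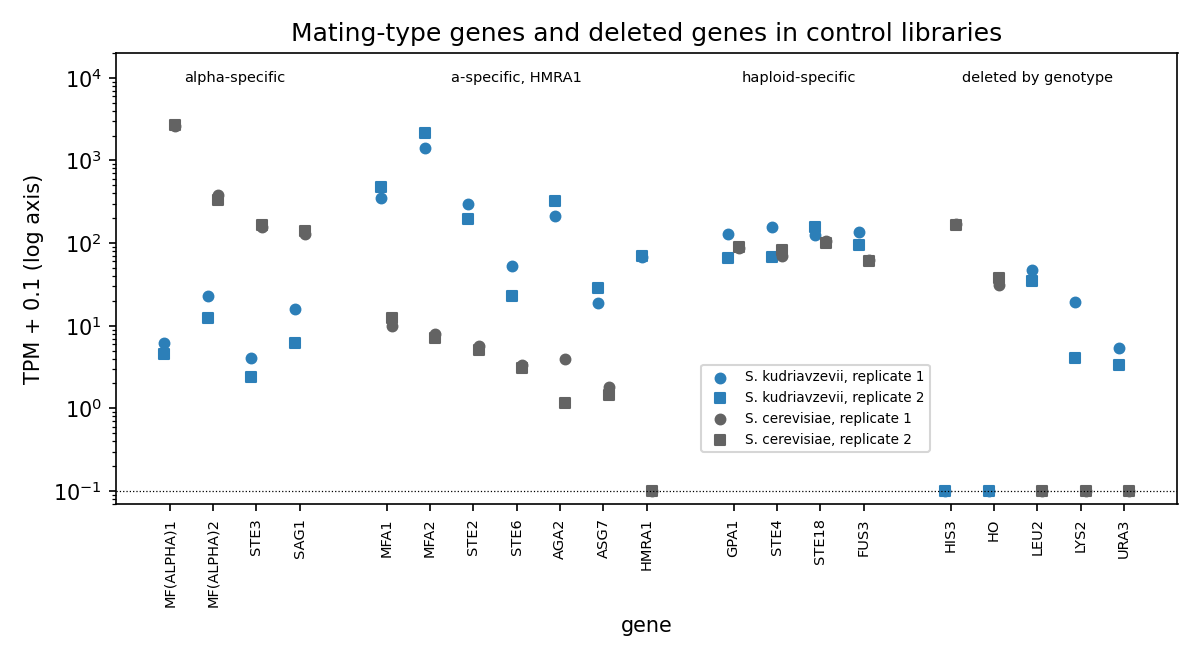
TPM + 0.1 (log y axis) of mating-type genes, haploid markers and genes deleted by genotype in the 4 Saccharomyces control libraries, with a point for each library. The dotted line marks 0 TPM. S. kudriavzevii lies low for the 4 α-specific genes and high for the 6 a-specific genes and HMRA1, with no overlap, while the haploid markers lie between 60.4 and 156 TPM in all 4 libraries.

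Genes that the study names were looked up next. Of 13 such genes, 1 was lower in S. kudriavzevii and 12 did not pass the test, against 7.05% lower over all orthologs. Their median log2 difference was -0.18. With the length trend removed 2 were higher (DED1 and PUB1, edgeR adjusted p = 0.0195 and 0.0115). In the same fit 3 were lower (SSA4, HSF1 and ARC1, edgeR adjusted p = 0.000407, 0.00701 and 0.0397). That fit called 40.3% of all orthologs, so passing there does not set a gene apart. PAB1 encodes the poly(A)-binding protein (YER165W, chromosome V, 510373 to 512106, + strand, R64). Its mRNA was at 889 and 433 TPM in S. kudriavzevii (SKDZ_05G2450), 397 and 448 TPM in S. cerevisiae and 224 and 220 TPM in K. marxianus (KLMA_30299). By mean TPM it ranked 250 of 5549 genes in S. kudriavzevii, 325 of 5970 in S. cerevisiae and 410 of 4952 in K. marxianus. The Saccharomyces libraries overlapped (log2 difference 0.54, SE 0.34, edgeR adjusted p = 0.33), and both K. marxianus libraries were the lowest of the 6.

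SSA4, a strongly heat-induced Hsp70, was the gene that passed with all 4 libraries as counted. It stood at 7.53 and 5.37 TPM in S. kudriavzevii and at 27.5 and 25.0 TPM in S. cerevisiae (log2 difference -2.07, SE 0.25, edgeR adjusted p = 0.00616). The related SSA3 was at 15.7 and 5.73 TPM against 12.2 and 13.3 TPM. The regulators of the response lay near the median gene in S. cerevisiae, whose median was 27.2 and 28.7 TPM. HSF1 was at 29.4 and 9.33 TPM in S. kudriavzevii and 29.2 and 29.3 TPM in S. cerevisiae, MSN2 at 38.4 and 24.6 TPM against 32.1 and 36.3 TPM, and MSN4 at 31.7 and 20.5 TPM against 35.5 and 36.7 TPM. These values overlapped except for MSN4, whose S. kudriavzevii values were below those of S. cerevisiae but did not pass the test (edgeR adjusted p = 0.155).

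The mRNAs of translation factors, RNA-binding proteins and synthetases on this list did not pass the test. DED1, a DEAD-box helicase of translation initiation, was at 316 and 85.0 TPM in S. kudriavzevii and at 74.2 and 94.1 TPM in S. cerevisiae. PUB1, a poly(U)-binding protein, was at 350 and 197 TPM against 133 and 160 TPM, without overlap and without passing the test (edgeR adjusted p = 0.0823). SUP35, a translation termination factor, was at 267 and 120 TPM against 136 and 171 TPM. The synthetase GUS1 was at 274 and 188 TPM against 164 and 183 TPM, MES1 at 190 and 71.3 TPM against 96.9 and 125 TPM, and their cofactor ARC1 at 453 and 313 TPM against 568 and 598.7 TPM. PGK1, a glycolytic kinase that the study names only as part of a plasmid, was at 3164 and 3516 TPM against 5319 and 4517 TPM.

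Part of the general stress genes were lower in S. kudriavzevii. Of 46 tested targets of the general stress factors Msn2 and Msn4, 17 were lower, 1 was higher and 28 did not pass the test, against 7.05% lower over all orthologs. The median log2 difference was -1.05, against 0.02 over all orthologs. YGP1, a secreted glycoprotein, was at 29.5 and 43.0 TPM in S. kudriavzevii against 1072 and 716 TPM in S. cerevisiae. HSP12, a membrane-protecting protein, was at 27.9 and 30.05 TPM against 408 and 237 TPM, and GRX1, a glutaredoxin, at 103 and 122 TPM against 424 and 316 TPM. TRX2 and PNC1, the other abundant members, did not pass the test, with TRX2 at 681 and 964 TPM against 1276 and 780 TPM. The list held 0.287% and 0.275% of TPM in S. kudriavzevii and 0.709% and 0.481% in S. cerevisiae. Its median stayed negative, between -1.22 and -0.78, in all 16 alternative fits, while the count of lower members ran from 5 to 36.

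Chaperones split. Of 29 tested Hsf1 targets and chaperones, 9 were lower and 1 was higher, against 7.05% and 7.17% over all orthologs. The other 19 did not pass the test, and the median log2 difference of the list was -0.17. The lower ones included HSP26 at 19.6 and 14.96 TPM against 543 and 215 TPM, HSP104 at 29.4 and 13.6 TPM against 112 and 97.4 TPM, and SSA1 at 108 and 108 TPM against 611 and 434 TPM. HSP26 is a small heat shock protein, HSP104 takes aggregates apart, and SSA1 is an Hsp70 close in sequence to SSA2, with which it may share reads. The most abundant chaperones did not pass. SSA2 was at 1638 and 1088 TPM against 1018 and 1115 TPM, and HSC82, the constitutive Hsp90, at 1222 and 1067 TPM against 759 and 829 TPM. HSP60, the mitochondrial chaperonin, was the member that was higher, at 804 and 492 TPM against 241 and 224 TPM. Replicate 1 of S. cerevisiae was the higher of its pair for HSP26, HSP12, YGP1 and SSA1, and both S. cerevisiae values of each lay above S. kudriavzevii.

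Part of the respiratory genes were higher in S. kudriavzevii. Of 38 tested genes of the respiratory chain and ATP synthase, 18 were higher, 0 were lower and 20 did not pass the test, against 7.17% higher over all orthologs, with a median log2 difference of 0.99. RIP1, the Rieske protein of complex III, was at 520 and 333 TPM against 67.3 and 77.5 TPM, a 5.89-fold difference of means. CYC1, the main cytochrome c, was at 633 and 565 TPM against 93.3 and 123 TPM, and COX6 of complex IV at 659 and 603 TPM against 142 and 155 TPM. QCR9 of complex III was at 750 and 748 TPM against 294 and 281 TPM. Of the other 3 most abundant members, ATP2 was at 938 and 494 TPM against 336 and 361 TPM, and ATP15 and ATP18 overlapped between species. The list held 1.55% and 1.28% of TPM in S. kudriavzevii and 0.703% and 0.719% in S. cerevisiae. With either S. kudriavzevii library alone its median was 0.98 and 1.19, and over the 16 alternatives the count of higher members ran from 4 to 34. The list of tricarboxylic acid cycle and related genes did not move as a group, with 2 of 20 genes higher and 1 lower, against 7.17% and 7.05% over all orthologs. MDH1, the mitochondrial malate dehydrogenase, was higher (657 and 397 TPM against 160 and 147 TPM). The 1 lower gene was CIT2, the peroxisomal citrate synthase, which lies outside the cycle (4.05 and 3.31 TPM against 39.8 and 29.4 TPM).

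Sugar transport and fermentation differed member by member. Of 13 tested hexose transporters 4 were higher and 1 was lower, against 7.17% higher and 7.05% lower over all orthologs. Among the higher ones HXT10 and HXT14 were low in both species. HXT10 was at 6.36 and 2.26 TPM in S. kudriavzevii against 0.354 and 0.344 TPM in S. cerevisiae. HXT14 was at 1.90 and 0.663 TPM against 0.112 and 0.116 TPM, the latter from 5 and 6 reads. HXT2 and HXT4, known in S. cerevisiae as carriers expressed at low glucose, were at 263 and 270 TPM and at 266 and 390 TPM in S. kudriavzevii, against 43.7 and 41.6 TPM and 24.4 and 28.6 TPM in S. cerevisiae. HXT1, the carrier induced by high glucose, was at 57.3 and 29.6 TPM against 162 and 187 TPM (log2 difference -2.10, SE 0.24, edgeR adjusted p = 0.00599). HXT3, the most abundant member, was at 601 and 556 TPM against 306 and 271 TPM and did not pass the test. The HXT genes are close copies of each other, so their counts carry the uncertainty of shared reads. Of 24 genes of glycolysis and fermentation 5 were lower and 1 was higher, and the counts ran from 1 to 16 lower and 0 to 4 higher over the alternatives, against 7.05% lower and 7.17% higher over all orthologs. The lower ones included TDH1 at 45.4 and 49.6 TPM against 530 and 245 TPM, ENO1 at 117 and 134 TPM against 544 and 362 TPM, and mitochondrial ADH3 at 126 and 71.3 TPM against 302 and 301 TPM. The abundant enzymes TDH3, GPM1, FBA1 and ADH1 did not pass the test, and TDH1 and ENO1 have near-identical partners with which they may share reads. The pathway held 5.47% of TPM in both libraries of S. kudriavzevii and 7.44% and 6.88% in S. cerevisiae.

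Genes that S. cerevisiae is known to induce in the cold or with little oxygen were looked up as well. Over all orthologs 7.05% were lower and 7.17% higher. Of 9 such genes 6 were lower in S. kudriavzevii, between 3 and 7 over the alternatives, and 1 was higher (median log2 difference -3.39). TIR1, a wall mannoprotein, was at 28.8 and 71.1 TPM against 1240 and 559 TPM, and TIR4 at 7.14 and 3.36 TPM against 99.1 and 37.9 TPM. DAN1, a mannoprotein made without oxygen, was at 0.599 and 1.08 TPM against 105 and 32.4 TPM. S. cerevisiae replicate 1 was more than 2 times replicate 2 for these genes, and both lay above S. kudriavzevii. NSR1, a nucleolar protein that is cold-induced, went the other way, at 1406 and 1267 TPM against 431 and 466 TPM, with an edgeR adjusted p of 0.0468 close to the threshold. HSP12 is on this list too and is counted among the 6. TIP1 and the fatty acid desaturase OLE1 did not pass the test, with OLE1 at 492 and 338 TPM against 156 and 210 TPM. The list was labelled cold-induced and does not cover the genes of low oxygen. CYC7, the cytochrome c of low oxygen, is not on it and was higher in S. kudriavzevii. It was at 49.6 and 56.6 TPM against 9.34 and 6.70 TPM (edgeR adjusted p = 0.0114).

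Genes for building ribosomes and genes for ribosomal proteins gave different counts. Of 65 ribosome biogenesis genes 14 were higher and 0 were lower in S. kudriavzevii, against 7.17% higher and 7.05% lower over all orthologs. Their median log2 difference was 0.80, between 0.70 and 0.96 over the alternatives. The count of higher genes ran from 0 to 55 over the same alternatives, and the list held 1.75% and 1.16% of TPM against 0.735% and 0.895%. ARX1, an export factor of the large subunit, was at 272 and 130 TPM against 49.8 and 68.4 TPM. DBP2, an RNA helicase, was at 615 and 340 TPM against 128 and 180 TPM. NOP1 (fibrillarin) was at 1618 and 1244 TPM against 770 and 937 TPM and did not pass the test.

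Of 129 cytosolic ribosomal protein genes 1 was higher and 0 were lower, against 7.17% higher and 7.05% lower over all orthologs. Over the 16 alternatives the higher count ran from 0 to 102 and the lower from 0 to 107. Their share of TPM was 32.0% and 40.0% in S. kudriavzevii, against 36.4% and 37.7%, so the S. kudriavzevii pair enclosed the S. cerevisiae pair. Their median log2 difference was 0.01, and it turned with the library, to -0.65 with S. kudriavzevii replicate 1 alone and 0.48 with replicate 2 alone. Of 19 aminoacyl-tRNA synthetases and cofactors 0 passed the edgeR test, 0 had an unadjusted p under 0.05 and DESeq2 called 0. Of 42 translation factors 2 were higher and 1 was lower, against the same 7.17% and 7.05%. The lower one was ANB1, the eIF5A made without oxygen, at 1.31 and 2.02 TPM against 139 and 63.5 TPM. HYP2, the eIF5A of aerobic cells, was at 4077 and 4150 TPM against 1867 and 2163 TPM and did not pass the test.

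**Figure D5:**
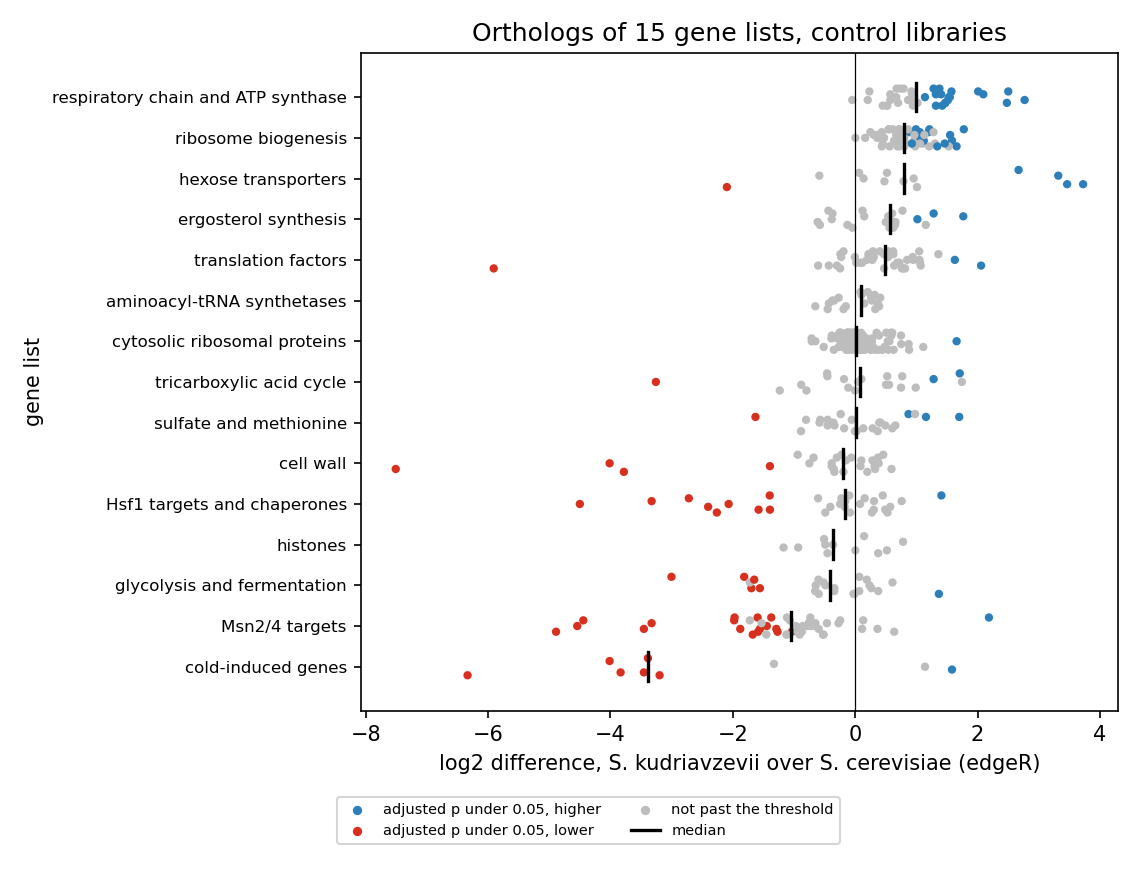
Log2 difference in level, S. kudriavzevii over S. cerevisiae (x axis, edgeR), for the tested members of 15 gene lists, with a point for each gene coloured by the test and a black bar at the median. Respiratory chain and ribosome biogenesis genes lie mostly to the right, with medians of 0.99 and 0.80, and cytosolic ribosomal proteins around 0. Msn2/4 targets and the list labelled cold-induced genes lie to the left, with medians of -1.05 and -3.39. The latter list also holds DAN1, which is made without oxygen.

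Biosynthetic lists differed in their counts, which stand against 7.17% higher and 7.05% lower over all orthologs. Of 24 ergosterol genes 3 were higher, among them ERG28, a scaffold of the pathway, at 337 and 354 TPM against 106 and 101.2 TPM. ERG25, the most abundant, was at 1205 and 1322 TPM against 574 and 595 TPM and did not pass the test. Of 26 genes of sulfate and methionine metabolism 3 were higher and 1 was lower. Of 22 genes of lysine, leucine and histidine synthesis 8 were lower and 2 were higher. The 2 higher ones were LEU2 and LYS2, deleted in BY4742, and 1 of the lower ones was HIS3, deleted in FM1389. The count of lower genes ran from 1 to 10 over the alternatives. LEU1, of leucine synthesis, was at 41.1 and 14.1 TPM against 73.7 and 108 TPM, and LYS20, of lysine synthesis, at 84.8 and 67.8 TPM against 196 and 175 TPM. Of 12 uracil genes only URA3 passed. Of 11 histone genes 0 passed the edgeR test, although 2 were lower at an unadjusted p under 0.05 and by DESeq2, with HHF1 at 2125 and 1922 TPM against 1977 and 2080 TPM.

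The remaining large differences included genes whose counts depend on the annotation. The 10 largest called differences in each direction held LEU2, LYS2, URA3, HMRA1 and MFA2 on the higher side and HIS3, HO and MF(ALPHA)1 on the lower. LDO16 and ADF1 had 0 reads in S. cerevisiae and 1153 and 1201, and 946 and 816, reads in S. kudriavzevii. In R64 both lie wholly inside another counted gene, LDO45 and FYV5. LSM5 and MRPL51 overlapped other R64 genes over 84.8% and 76.4% of their length and stood at 354 and 423 TPM and at 170 and 84.3 TPM in S. kudriavzevii against 1.20 TPM or less in S. cerevisiae. Of 8 tested orthologs overlapped by another R64 gene over at least 50% of their length, 8 were called higher, against 7.02% of the others. Reads that fell on more than 1 gene were 0.776% and 0.719% of the S. cerevisiae libraries and 0.168% and 0.171% of the S. kudriavzevii libraries, and their part in these differences was not tested. IMA3, an isomaltase with near-identical copies, was at 1.56 and 0.508 TPM against 0 reads, at least 8.25-fold higher.

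On the lower side of that set stood CTS1, the chitinase that parts daughter from mother, at 5.68 and 3.94 TPM in S. kudriavzevii against 810 and 892 TPM in S. cerevisiae (log2 difference -7.51, SE 0.43, edgeR adjusted p = 0.000898). HUG1, a small inhibitor of ribonucleotide reductase, was at 5.01 and 4.92 TPM against 422 and 135 TPM. SHH3, a mitochondrial protein related to a subunit of succinate dehydrogenase, was at 0.502 and 0.152 TPM against 24.7 and 22.5 TPM. ADH7, an alcohol dehydrogenase, was at 0.273 and 0.0552 TPM against 9.56 and 8.93 TPM. The gene so called in S. kudriavzevii, SKDZ_03G0020, is numbered from the start of its chromosome. ADH7 of S. cerevisiae lies at 309070 to 310155 of chromosome III, so this pair is less sure. PHO11, an acid phosphatase with a near-identical copy, had 0 reads in S. kudriavzevii and was at 3.62 and 3.02 TPM in S. cerevisiae, at least 47.1-fold higher.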

How the data were processed

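Total RNA of the yeast cultures was poly(A)-selected and sequenced in paired ends. Per the labels the authors used Trim Galore 0.6.10, STAR 2.7.10b and HTSeq 2.0.2, with build R64 for S. cerevisiae, and deposited read counts per gene for each library. The authors also deposited a table of TPM with coding lengths, which was recomputed from the counts without a difference and is recorded as a score because the 12 libraries are stacked in 1 column. Reads counted on no gene were left out of library sizes. S. kudriavzevii identifiers were paired with S. cerevisiae genes by aligning gene order and length with the RefSeq gene table of Skud-IFO1802, which gave 4928 orthologs. These names are inferred, and pairs of equal length alone were an alternative.

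Counts of S. kudriavzevii and S. cerevisiae controls were compared with edgeR 4.0.16 (filterByExpr, TMM, length offset, quasi-likelihood test, Benjamini-Hochberg adjustment over 4923 orthologs, threshold 0.05). A count of 0 was taken as 3 reads per library in lower bounds. Alternatives used limma 3.58.1 and DESeq2 1.42.0 in R 4.3.3, other scalings, filters and offsets, a replicate block, and each library left out. The 4 measures over libraries were compared by exact permutation tests. Nothing beyond the label biological replicate says how replicates were grown, so p-values measure the spread between these libraries.

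The members, gene lists and tests were chosen with earlier results of these data known. Genes were named if the study named them, if they led in TPM, if they had the 10 largest called differences in a direction, if they were among the 4 most abundant of a list, the 3 largest S. kudriavzevii replicate ratios or a cell type marker. Others (HSP12, HSP26, HSP104, SSA1, HSP60, RIP1, CYC1, CYC7, COX6, CIT2, HXT10, HXT14, TDH1, ENO1, ADH3, TIR4, ARX1, DBP2, ERG28, LEU1, LYS20, DSE1, DSE2, SCW11, NHP6A and NHP6B) were chosen after their values were seen.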

Additional observations from a re-analysis of the deposited data

Results flagged for a closer look

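The relation of TPM to coding length moved in opposite directions on heat shock in 2 species, in every library of each. The rank correlation rose by 0.0335 in K. marxianus, from -0.417 and -0.399 without stress to -0.391 and -0.358 with it. The S. cerevisiae value fell by 0.0368, from -0.354 and -0.302 to -0.374 and -0.356. The difference between the species was not tested, and with 2 libraries a group the smallest exact p within a species is 0.333.

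Reads were also counted on 47 S. cerevisiae genes for which no TPM was listed, which no comparison used. They took 23683 and 28045 reads in the control libraries, 0.12% and 0.119% of reads on genes. All 47 are annotated in R64 with ribosomal slippage and 44 of them as retrotransposon genes.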

How the results depend on the processing

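TPM recomputed from the counts left all 4 measures in place. As a share of counts the 10 most abundant genes held 33.1% in K. marxianus and 11.2% in S. cerevisiae, and without genes under 300 bases 30.1% and 10.9%. Among genes with at least 10 counts, those at 1000 TPM or more were 3.67% in S. cerevisiae and 3.01% in K. marxianus. Among orthologs, genes under 1 TPM were 1.40% for S. kudriavzevii and 0.791% for S. cerevisiae. The S. cerevisiae correlation with length was -0.374 for genes of at least 1 TPM, -0.287 with no filter and -0.273 as Pearson's r on log2 values. Leaving out a replicate gave the other library's value: top 10 shares of 10.2% to 13.3%, 11.4% to 11.7% and 27.4% to 28.8%.

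Orthologs called higher and lower were 168 and 185 with library totals, 571 and 506 with DESeq2, 173 and 147 with limma on log2(TPM + 1), 173 and 153 on log2(TPM + 0.1), 714 and 848 with 8 libraries in the fit, and 86 to 1304 higher and 142 to 1332 lower without a replicate, where the lone library was assumed to vary like the other species. Removing the length trend, chosen after seeing the data, gave 915 and 1071. Pairs of equal length alone gave 335 and 317. Of the 700 calls, 347 were kept with library totals and 253 with limma, all in the same direction.

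Replicate numbers did not pair the libraries: deviations of same-numbered libraries correlated at -0.449. A replicate block gave 282 and 334. The crossed pairing, added after seeing the data, gave 666 and 728.

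Over 149 named genes and 16 alternatives, 2156 of 2367 values kept their side of the threshold, 43 lost a call, 158 gained one and 10 turned sign with a call. These 9 genes turned between the fits without S. kudriavzevii replicate 1 and without replicate 2, with log2 differences from -0.74 to 0.48 for ACO1, 0.47 to -0.62 for CYS3, 0.39 to -0.53 for NOP10, 0.53 to -0.65 for RPL30 and 0.64 to -0.49 for RPP2B, and 0.33 to -0.46 for ADH1, 0.33 to -0.88 for RPL38, 0.29 to -0.75 for RPS20 and 0.48 to -0.85 for RPS31. With the length trend removed NOP10 was -0.59. None of the 9 was called with all 4 libraries, and the cause was not tested.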

Other observations

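Beside CTS1, 3 other genes were picked after their low values in S. kudriavzevii were seen, and no list of related genes was counted. DSE1, a daughter-specific protein, stood at 5.39 and 3.06 TPM in S. kudriavzevii against 149 and 165 TPM in S. cerevisiae. DSE2, a secreted glucanase-like protein, was at 46.2 and 24.3 TPM against 460 and 505 TPM, and the wall glucanase SCW11 at 15.6 and 9.17 TPM against 157 and 167 TPM. In each case the S. cerevisiae libraries differed little from each other and lay well above both S. kudriavzevii libraries, with edgeR adjusted p of 0.000762 for DSE1, 0.00157 for DSE2 and 0.00116 for SCW11.

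The chromatin proteins NHP6A and NHP6B were higher in S. kudriavzevii, at 771 and 972 TPM against 65.8 and 71.3 TPM and at 333 and 376 TPM against 64.4 and 68.8 TPM. Both overlap another counted R64 gene over 66.3% and 52.3% of their length, and the part of that overlap in the difference was not tested.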
